A study of Homo sapiens with 6 samples.

Results

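Tetraspanins are a family of 33 listed human genes whose proteins cross the membrane several times, and their transcripts were followed in AGS, a cell line established from a human gastric adenocarcinoma, with and without the non-steroidal anti-inflammatory drug indomethacin. The 33 members are the genes whose Ensembl identifiers in the deposited tables carry the listed symbols, and all 33 were matched among 60604 genes read. Total RNA was sequenced in 3 libraries of AGS cells given 0.5 mM indomethacin for 24 h and in 3 control libraries labelled with an indomethacin dose of 0 mM, for which the labels give no time. AGS is a single line. The labels do not tell whether libraries of the same group were grown apart, and p-values therefore reflect only how much these libraries vary, which may be technical. The family was taken up because most of its members fell in this same comparison, so the members' values are a description with no test, and a count of members that passed the threshold supports nothing by itself.

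Tetraspanins gather integrins, immunoglobulin proteins, proteases and growth factor precursors into patches of the plasma membrane and of endosomes, and they carry fatty acid (palmitate) anchors that help these patches form. They have no enzymatic activity of their own and act through the partners they hold. In gastrointestinal epithelium CD9, CD63, CD81, CD151 and TSPAN8 are best known, as organisers of adhesion and migration and as marker proteins of extracellular vesicles. A subgroup called C8, named for the cysteines of its large outer loop, escorts the protease ADAM10 to the cell surface.

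Of the 33 members, 32 had at least 1 count and 23 had enough counts to be tested. Of these 23, 17 fell and 0 rose in indomethacin (edgeR's quasi-likelihood test, Benjamini-Hochberg over 17200 genes, adjusted p under 0.05). Of all genes tested 61.6% passed, 31.0% as lower and 30.6% as higher, and because the family was picked in this comparison nothing is read from its count. At an unadjusted p under 0.05, 1 member was higher, and by limma-voom and DESeq2 the adjusted counts of higher members were 1 and 0. The median log2 fold change of the 23 was -0.99, against 0.04 for all genes tested. With upper-quartile scaling factors the median of all genes moved to 0.16, a shift of 0.12, and that of the members was -0.88. Expression of 18 members was lower in every indomethacin library than in any control library, against 33.3% of all genes tested, and 2 members were higher in every indomethacin library, against 33.7%. Of the 23 members tested, 11 fell by 2-fold or more, beside 15.6% of all genes tested. TSPAN2, TSPAN33 and CD37 passed the filter on low counts through 1 group only, so their presence among the members tested depends on that difference.

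Total counts were between 17535435 and 20094302 in the indomethacin libraries and between 20983189 and 23221077 in the control libraries. A count of 0 in a library allows a level of up to 3 counts, for counting error only. By total counts this is 0.149 to 0.171 CPM (counts scaled to library size) in indomethacin and 0.129 to 0.143 CPM in control libraries. Other CPM values use library sizes adjusted by TMM scaling factors, so these limits are approximate on that scale. The labelled cell type was checked against marker genes. The 8 epithelial markers, with KRT8, KRT18, KRT19 and EPCAM among them, summed to 3056 to 3388 CPM in indomethacin and 3371 to 3871 CPM in control libraries. EPCAM and KRT8 fell, CDH1 and CLDN4 rose and the other 4 did not pass, beside 61.6% of all genes tested that passed. KRT7 averaged only 0.982 CPM in indomethacin and 0.820 CPM in control libraries. Of 10 gastric and intestinal markers, 7 were tested, of which 4 fell (CDX2, CDH17, SOX2 and GATA6) and 2 rose (TFF1 and TFF2). TFF1 and TFF2 averaged 25.2 and 1.95 CPM in indomethacin and 0.775 and 0.0455 CPM in control libraries. HNF4A did not pass, and the foveolar mucin MUC5AC, the mucin MUC6 and gastrokine GKN1 were not among those tested. Of 9 leukocyte markers, 8 had at most 20 counts over the 6 libraries, and the exception, lysozyme (LYZ), is also made by gastric epithelium and averaged 122 CPM in indomethacin and 1102 CPM in control libraries. Of 6 fibroblast markers 4 had at most 20 counts, as did 3 of 5 endothelial, 4 of 5 urothelial and 5 of 8 photoreceptor markers. Their summed levels were 9.67 to 11.4 CPM in indomethacin and 6.47 to 8.57 CPM in control libraries for fibroblasts, and at most 4.93 CPM in any library for the other 3 lists. Because the RNA came from bulk cultures, fewer cells of a kind and less RNA per cell cannot be told apart.

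The promoters of 4 members are shown to set the largest falls among abundant members beside members that did not pass the test. They are the windows from 250 bases before to 50 bases after the most upstream RefSeq start of each gene on GRCh38.p14, the same assembly as the hg38 of the counts, written 5′ to 3′ on the gene's strand. TSPAN8 is at chr12:71157950-71158249 (minus strand), TSPAN6 at chrX:100637055-100637354 (minus), CD9 at chr12:6199696-6199995 (plus) and TSPAN5 at chr4:98658562-98658861 (minus). Capitals mark every match, on either strand and with overlaps counted, to the letters GGGCGG of a GC box, the letters TATAAA of a TATA box, the letters CCAAT of the box named for them, the letters CACGTG of an E-box, the letters TGANTCA of an AP-1 motif or the letters CATTCC of a TEAD motif.
TSPAN8: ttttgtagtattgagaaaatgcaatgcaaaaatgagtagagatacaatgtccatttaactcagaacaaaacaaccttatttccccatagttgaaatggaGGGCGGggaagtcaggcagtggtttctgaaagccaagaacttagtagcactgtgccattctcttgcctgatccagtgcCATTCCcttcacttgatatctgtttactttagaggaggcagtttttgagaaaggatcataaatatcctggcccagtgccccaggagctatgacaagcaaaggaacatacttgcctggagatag
TSPAN6: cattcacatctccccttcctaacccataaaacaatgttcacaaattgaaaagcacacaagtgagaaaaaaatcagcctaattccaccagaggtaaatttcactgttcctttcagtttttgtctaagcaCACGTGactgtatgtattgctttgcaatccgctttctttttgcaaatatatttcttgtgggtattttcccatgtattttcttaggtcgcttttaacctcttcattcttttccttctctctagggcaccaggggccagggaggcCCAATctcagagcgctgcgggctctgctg
CD9: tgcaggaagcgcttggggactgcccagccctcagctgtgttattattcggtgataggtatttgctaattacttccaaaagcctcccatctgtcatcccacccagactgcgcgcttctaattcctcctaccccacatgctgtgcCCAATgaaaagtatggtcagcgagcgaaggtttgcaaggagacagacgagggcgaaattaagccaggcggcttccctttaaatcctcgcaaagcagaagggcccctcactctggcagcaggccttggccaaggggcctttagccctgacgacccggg
TSPAN5: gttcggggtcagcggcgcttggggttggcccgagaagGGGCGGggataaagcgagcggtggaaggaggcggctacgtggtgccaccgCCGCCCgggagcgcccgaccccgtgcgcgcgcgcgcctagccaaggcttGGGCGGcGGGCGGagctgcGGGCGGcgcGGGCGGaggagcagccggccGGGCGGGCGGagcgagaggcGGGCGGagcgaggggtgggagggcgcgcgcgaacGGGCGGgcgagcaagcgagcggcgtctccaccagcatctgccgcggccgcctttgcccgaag
TSPAN8 and TSPAN6, which fell most among the abundant members, each had a window of 42.3% GC, with a CpG content of 0.07 and 0.39 of that expected from base composition. CD9 and TSPAN5 had 55.3% and 78.3% GC, with CpG at 0.53 and 1.15 of the expected content. TSPAN5 held 10 GC boxes and TSPAN8 held 1. Other windows follow this contrast only in part. The other TSPAN8 window had 38.0% GC with CpG at 0.28 of the expected content. The other TSPAN6 window, by contrast, had CpG at 0.73 of the expected content and 1 GC box. Further CD9 windows ran from 45.0% GC to 75.7% GC, the latter with 6 GC boxes. TSPAN14 and TSPAN2, which also fell, had windows of 85.7% and 79.7% GC with 6 and 5 GC boxes. RefSeq windows were found for 25 members, 45 windows in all, several of them overlapping. A GC box was in 60.0% of these windows, against 45.0% of 35116 windows of all genes, a TEAD motif in 22.2% against 14.0%, a CCAAT box in 24.4% against 34.6%, TATA in 2.22% against 11.5%, an AP-1 motif in 6.67% against 7.71% and an E-box in 6.67% against 7.26%. These are matches of letters and not measured binding. Windows and not genes were counted, and CD63, TSPAN4, CD9 and TSPAN14 gave several windows each. The CD63 windows at chr12:55728305-55728604 and chr12:55728303-55728602 hold the same matches. The percentages thus weigh a few genes heavily, and nothing is read from them.

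TSPAN8, a tetraspanin of digestive tract epithelium and its carcinomas, was the most abundant member in control cells and fell about 10-fold. It had 56.8, 48.7 and 51.7 CPM in the indomethacin libraries, against 506, 500.3 and 559.6 CPM in the control libraries (log2 fold change -3.32, SE 0.12). The gene is annotated on chromosome 12 from 71125085 to 71441898 on the minus strand in the deposited tables, 284 kb further upstream than its RefSeq start. TSPAN6, an X-linked member found in many epithelia, fell 4.69-fold. It had 16.4, 15.3 and 17.9 CPM in the indomethacin libraries, against 73.4, 74.7 and 84.4 CPM in the control libraries (-2.23, SE 0.11). TSPAN12, which joins the receptor for Norrin, a Wnt-like ligand of retinal vessels, had 4.75, 4.03 and 2.70 CPM in the indomethacin libraries, against 11.2, 10.6 and 12.6 CPM in the control libraries (-1.57, SE 0.20). In all 3 genes the groups were well apart, and replicate 3 was the lowest indomethacin library for TSPAN12. TSPAN7, the remaining member of this group and best known from neurons, had 6 counts over the indomethacin libraries and 2 over the control libraries and was not tested.

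**Figure D1:**
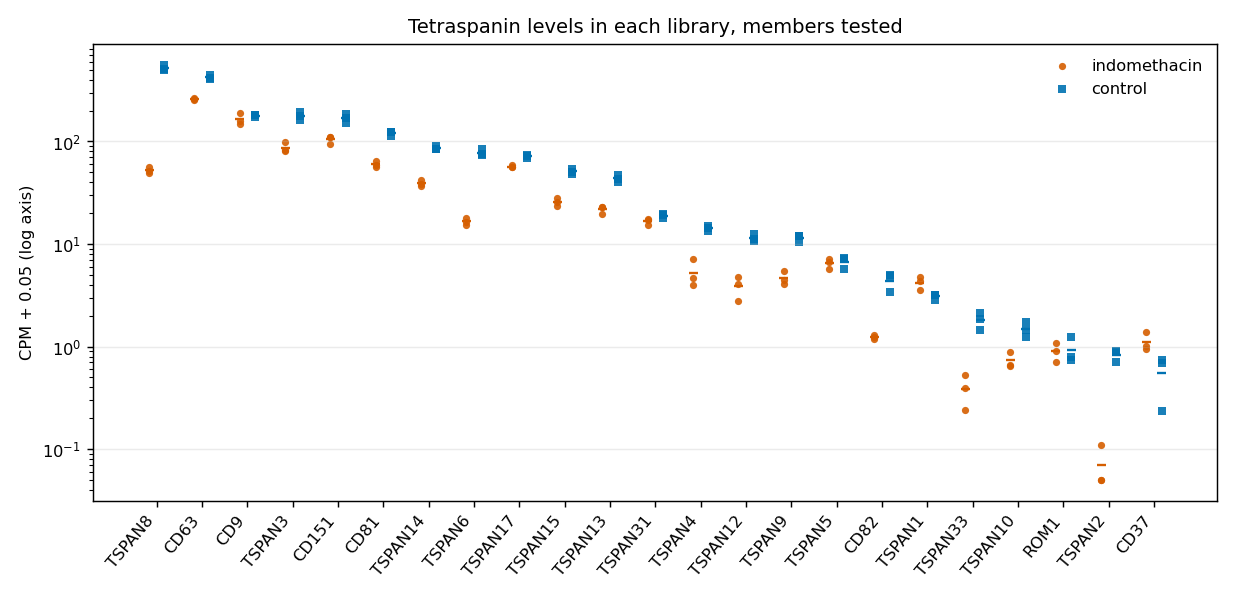
Each point is 1 library (circles, indomethacin; squares, control) and each bar the mean of 3, as CPM + 0.05 on a log axis, for the 23 tetraspanins tested in the order of their control level. TSPAN8 lies between 48.7 and 56.8 CPM in indomethacin and between 500.3 and 559.6 CPM in control libraries, while the points of CD9 and TSPAN5 overlap.

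Among the tetraspanins that hold integrins and immunoglobulin proteins at the plasma membrane, 6 of 7 tested fell and CD9 did not pass the test. Across all genes tested 31.0% fell, and nothing is read from the counts by group, because the members were picked in this comparison. CD9, which binds the immunoglobulin proteins PTGFRN and IGSF8 and is needed on mouse eggs for sperm fusion, had 159.5, 189 and 149 CPM in the indomethacin libraries, against 181, 173 and 182 CPM in the control libraries. Its groups overlapped, with a log2 fold change of -0.11 (SE 0.11). CD81, a receptor for hepatitis C virus, had 56.6, 64.7 and 59.3 CPM in the indomethacin libraries, against 113, 123 and 124 CPM in the control libraries (-0.99, SE 0.10). CD151, which binds laminin-binding integrins, had 112, 111 and 93.5 CPM in the indomethacin libraries, against 171, 150.0 and 185 CPM in the control libraries (-0.68, SE 0.12). Both fell without overlap between groups. CD151 shares 257 of 3894 exonic bases with POLR2L on the other strand, which leaves its level uncertain.

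TSPAN4, known from migrasomes, vesicles left behind by moving cells, had 3.95, 7.11 and 4.63 CPM in the indomethacin libraries, against 15.0, 13.5 and 14.4 CPM in the control libraries (log2 fold change -1.45, SE 0.20). TSPAN9, described in platelets, had 4.04, 4.38 and 5.47 CPM in the indomethacin libraries, against 12.0, 10.4 and 12.0 CPM in the control libraries (-1.31, SE 0.17). For both genes the highest indomethacin library stood below the lowest control library. CD82, known as a suppressor of metastasis, averaged 1.20 ± 0.0515 CPM in indomethacin and 4.36 ± 0.886 CPM in control libraries (SD, n = 3 each), with a log2 fold change of -1.86. TSPAN2, described in myelinating cells of rodents, had 0, 0 and 1 counts in the indomethacin libraries, against 17, 20 and 14 counts in the control libraries. It passed the filter on low counts through the control group only. TSPAN11 and TSPAN18 were not tested, with 29 and 16 counts in indomethacin and 19 and 6 counts in control libraries.

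In the C8 subgroup, the partners of ADAM10, 5 of 6 members fell, beside 31.0% of all genes tested, and TSPAN5 did not pass the test. TSPAN14, the most strongly counted of them in control cells, had 42.1, 38.1 and 37.1 CPM in the indomethacin libraries, against 85.0, 84.9 and 90.5 CPM in the control libraries (log2 fold change -1.15, SE 0.10). TSPAN15, through which ADAM10 cuts N-cadherin, had 23.7, 25.6 and 27.8 CPM in the indomethacin libraries, against 50.5, 54.4 and 48.6 CPM in the control libraries (-0.99, SE 0.11). Both were at about the same reduced level in all 3 indomethacin libraries. TSPAN17 had 56.0, 58.4 and 56.3 CPM in the indomethacin libraries, against 74.4, 69.0 and 72.6 CPM in the control libraries, a small fall (-0.34, SE 0.10) that was lost with upper-quartile factors (-0.22). TSPAN5 had 5.70, 6.66 and 7.09 CPM in the indomethacin libraries, against 5.69, 7.12 and 7.27 CPM in the control libraries, and these groups overlapped (-0.05, SE 0.18). TSPAN33, described in activated B cells, averaged 0.340 ± 0.145 CPM in indomethacin and 1.76 ± 0.331 CPM in control libraries, and TSPAN10, known from pigment cells, 0.685 ± 0.135 CPM in indomethacin and 1.42 ± 0.256 CPM in control libraries (SD, n = 3 each). The call on TSPAN10 was lost without control replicate 3 (log2 fold change -0.96) or without indomethacin replicate 2 (-0.98).

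Of the 5 members placed with endosomes and lysosomes, 3 fell, beside 31.0% of all genes tested. CD63, the classic marker of late endosomes and of extracellular vesicles, had 259, 264 and 253 CPM in the indomethacin libraries, against 414, 410.0 and 441 CPM in the control libraries (log2 fold change -0.70, SE 0.10). TSPAN3 had 97.9, 83.4 and 80.2 CPM in the indomethacin libraries, against 193, 160.0 and 179 CPM in the control libraries (-1.02, SE 0.12). TSPAN13 had 19.7, 23.1 and 23.1 CPM in the indomethacin libraries, against 40.6, 47.0 and 42.9 CPM in the control libraries (-0.99, SE 0.12). All 3 were lower in every indomethacin library. TSPAN31, which lies beside CDK4 and is amplified with it in sarcomas, had 17.7, 17.2 and 15.3 CPM in the indomethacin libraries, against 18.9, 19.7 and 17.7 CPM in the control libraries, and did not pass (-0.17, SE 0.12). It shares 1369 of its 5251 exonic bases with CDK4 on the other strand, so its level is uncertain. TSPAN1 averaged 4.16 ± 0.619 CPM in indomethacin and 3.03 ± 0.205 CPM in control libraries (SD, n = 3 each), without overlap (0.46, SE 0.22), and passed the test only with upper-quartile factors (0.58).

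Members restricted to other tissues had few counts, and of these CD37 and ROM1 had enough to be tested. CD37, a leukocyte tetraspanin, had 19, 27 and 16 counts in the indomethacin libraries, against 14, 15 and 4 counts in the control libraries (log2 fold change 1.07, SE 0.45) and did not pass, but passed as higher with limma-voom (1.22), with upper-quartile factors (1.19) and with the replicate number as a block (1.12). It shares 319 of 4161 exonic bases with TEAD2 on the other strand, a gene with 7374 counts over the 6 libraries, against 95 for CD37. The leukocyte members CD53 and TSPAN32 had 1 and 2 counts in indomethacin and 2 and 8 counts in control libraries. ROM1, which forms the rims of photoreceptor discs together with PRPH2, had 50 counts in indomethacin and 56 in control libraries (-0.01, SE 0.38), and 595 of its 1977 exonic bases are shared with EML3. PRPH2 had 16, 14 and 8 counts in the indomethacin libraries, against 6, 5 and 1 counts in the control libraries, too few for the main test, and passed as higher when no filter was used (1.68). The uroplakins UPK1A and UPK1B of urothelium had 2 and 24 counts in indomethacin and 2 and 9 counts in control libraries. TSPAN16 had 7 counts in indomethacin and 2 in control libraries, and TSPAN19 had 0 counts in all 6, below the level that 3 counts per group give (0.0519 CPM in indomethacin, 0.0460 CPM in control).

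**Figure D2:**
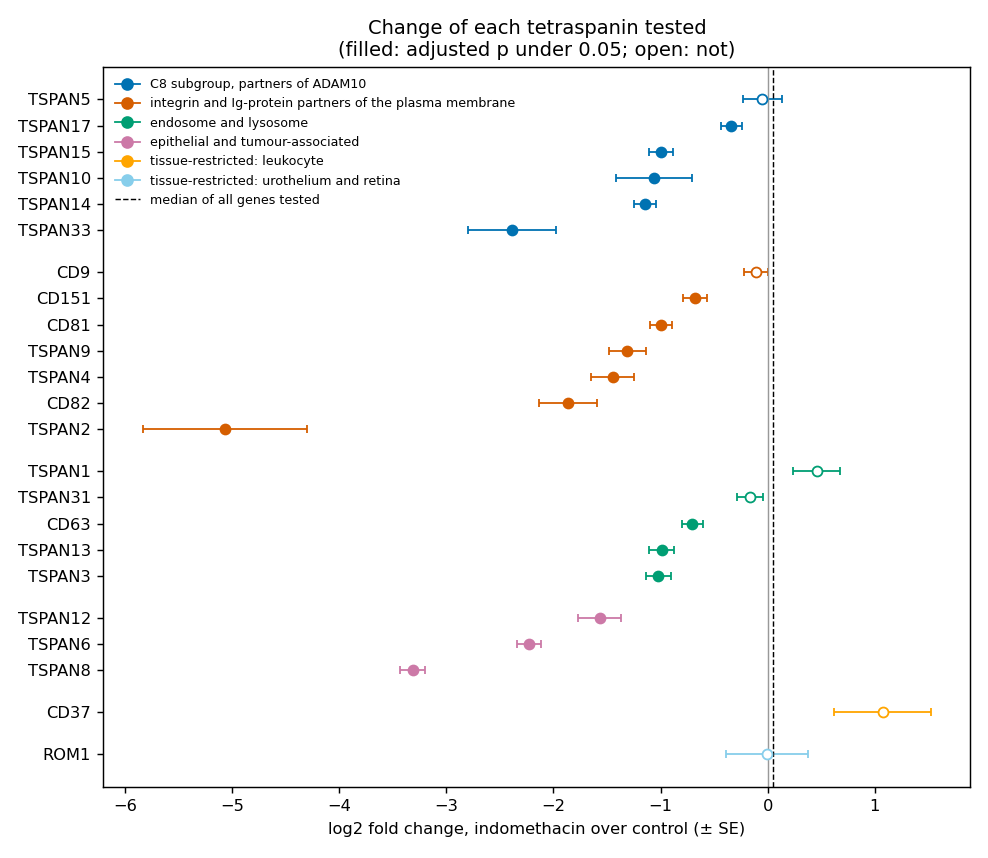
Points are log2 fold changes of the 23 tetraspanins tested, indomethacin over control, with standard errors, grouped by role; filled points passed an adjusted p under 0.05 and open points did not, and the dashed line is the median of all genes tested (0.04). Members that fell run from -5.07 for TSPAN2, a fitted value that depends on the prior count, to -0.34 for TSPAN17.

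Levels were also set per length, as TPM (counts per exon length, scaled to the same total in each library) computed from the counts and the exon length in the deposited tables, so that members could be compared with each other within a library. TPM is a share of each library's own total and was not rescaled between libraries. The length is the union of all annotated exons, so genes with long rarely used exons, such as TSPAN14 (17889 bases), may stand too low. The summed TPM of the family was 351, 332 and 261 in the indomethacin libraries, against 854, 843 and 849 in the control libraries. As a share of all counts the family took 0.0950% ± 0.00889 in indomethacin and 0.196% ± 0.00580 in control libraries (SD, n = 3 each). Without TSPAN8 the summed TPM was 287 ± 43.0 in indomethacin and 541 ± 6.95 in control libraries, so the lower sum did not rest on that gene alone.

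TSPAN8 went from rank 1 among the members in control to rank 4 in indomethacin libraries. Shares are of the family's own total, so the joint share of the other members rises by construction when that of TSPAN8 falls. CD63 and CD151 themselves fell in CPM, and CD9 did not pass. It took 8.66% ± 0.773 of the summed TPM in indomethacin and 36.3% ± 0.665 in control libraries, and CD63 took 42.7% ± 0.514 in indomethacin and 29.3% ± 0.156 in control (SD, n = 3 each). CD9 took 11.3% ± 1.08 in indomethacin and 5.15% ± 0.154 in control libraries, and CD151 10.8% ± 0.746 in indomethacin and 7.28% ± 0.503 in control. In indomethacin libraries the order of the levels per length was CD63 (134 ± 18.7 TPM), CD9 (35.8 ± 7.31), CD151 (34.2 ± 7.26) and TSPAN8 (27.2 ± 4.91). CD9 and CD151 changed order between libraries, and TSPAN8 was below both in every indomethacin library (32.7, 25.9 and 23.1 TPM). In control libraries the order was TSPAN8 (308 ± 5.77 TPM), CD63 (249 ± 1.14), CD151 (61.8 ± 4.58) and CD9 (43.8 ± 1.47), each apart from the next by more than its SD. TSPAN13, TSPAN3 and TSPAN15 followed in control libraries at 31.1 ± 2.95, 30.2 ± 2.99 and 27.6 ± 2.61 TPM. TSPAN15 was below TSPAN13 in every control library, while the place of TSPAN3 changed between libraries. Then came TSPAN6 and CD81 at 24.4 ± 0.823 and 23.3 ± 1.14 TPM. At 1 TPM or more on average there were 16 members in indomethacin and 18 in control libraries.

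**Figure D3:**
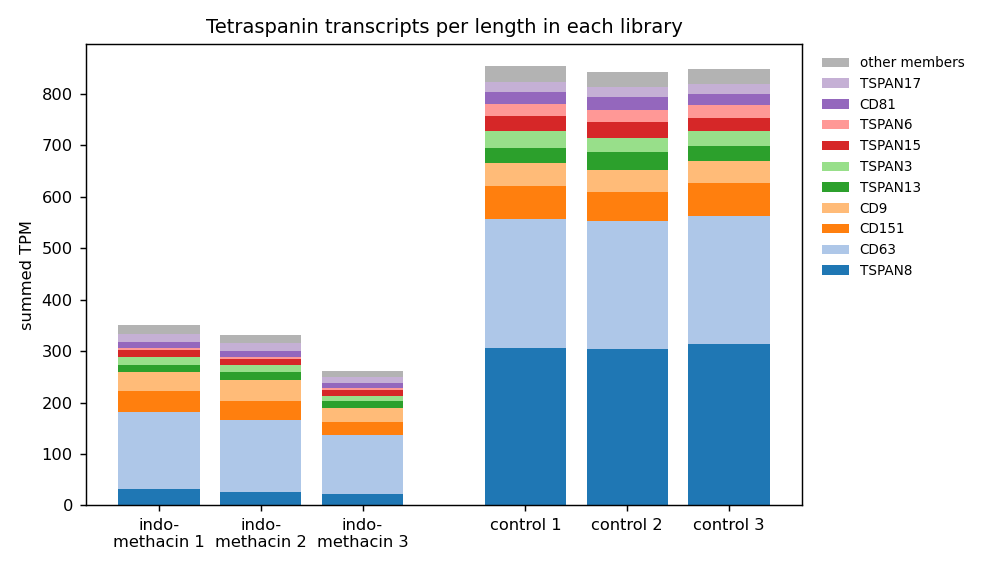
Bars are the summed TPM of the 33 tetraspanins in each library, indomethacin left and control right, divided by gene for the 10 most abundant in control. The indomethacin bars reach 261 to 351 TPM and the control bars 843 to 854 TPM, and the lowest block, TSPAN8, averages 27.2 TPM in indomethacin and 308 TPM in control.

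Genes that work with tetraspanins were followed as 11 lists, 105 genes in all, drawn up by function but with earlier results of these data known, so they are not independent of those results. Of 95 tested, 36 fell and 33 rose (median log2 fold change -0.04), beside 31.0% of all genes tested that fell and 30.6% that rose. With upper-quartile factors 33 fell and 39 rose. These shares of all genes are the background for the counts of each list, and nothing particular to a list is read from its count. Adjusted p-values that follow are from edgeR's quasi-likelihood test with Benjamini-Hochberg adjustment over all genes tested, n = 3 each.

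Of 8 tested integrin subunits that CD151 and CD9 hold, 5 rose and 2 fell (median 0.64). ITGA2, a collagen receptor subunit, averaged 1147 ± 196 CPM in indomethacin and 209 ± 36.8 CPM in control libraries (log2 fold change 2.46, edgeR adjusted p = 1.9e-08). The subunits of laminin receptors ITGA3, ITGA6 and ITGB4, direct partners of CD151, rose with log2 fold changes of 1.77, 1.03 and 0.95 (edgeR adjusted p = 9.2e-08, 1.8e-05 and 4.3e-05). ITGAV and ITGA7 fell (-0.60 and -0.91, edgeR adjusted p = 0.00091 and 0.0026), and the common subunit ITGB1, at 649 ± 61.9 CPM in indomethacin and 558 ± 18.5 CPM in control, did not pass. CD151 itself had a log2 fold change of -0.68.

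Of 13 tested growth factor ligands, receptors and junction proteins known to sit in tetraspanin patches of epithelial cells, 9 rose and 4 fell (median 1.13). EGFR had 278, 262 and 235 CPM in the indomethacin libraries, against 29.8, 41.9 and 34.3 CPM in the control libraries (log2 fold change 2.87, SE 0.14, edgeR adjusted p = 1.2e-09). The EGFR ligand HBEGF, a known partner of CD9, had 153, 162 and 216 CPM in the indomethacin libraries, against 26.0, 27.0 and 20.5 CPM in the control libraries (2.85, edgeR adjusted p = 3.0e-09). The tight junction protein OCLN and the ligand TGFA rose by 1.99 and 1.67 on the log2 scale (edgeR adjusted p = 5.6e-09 and 2.9e-08). The 4 that fell were ERBB2 (-1.05), EPCAM (-0.68), the membrane protease MMP14 (-0.66) and the complement regulator CD46 (-0.48), with edgeR adjusted p = 1.4e-06, 4.6e-05, 0.00059 and 0.0033. ERBB2 shares 571 of 10321 exonic bases with MIEN1 on the other strand.

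ADAM10, the protease of the C8 subgroup, fell. It had 124, 102 and 106 CPM in the indomethacin libraries, against 144, 163 and 157 CPM in the control libraries (log2 fold change -0.48, SE 0.11, edgeR adjusted p = 0.0017). Its relative ADAM17, which does not use the C8 subgroup, had 105, 135 and 168 CPM in the indomethacin libraries, against 48.4, 48.3 and 47.6 CPM in the control libraries, and rose (edgeR adjusted p = 9.7e-07). ADAM17 shares 1323 of 10728 exonic bases with IAH1 on the other strand. Of the 15 genes tested of these proteases, their regulators and proteins they cut, 7 rose and 5 fell (median 0.36). The prion protein gene PRNP and E-cadherin, CDH1, rose (1.63 and 1.51, edgeR adjusted p = 2.1e-08 and 8.0e-06), and the membrane-bound chemokine CXCL16 fell (-0.73, edgeR adjusted p = 8.9e-05). The amyloid precursor gene APP and the receptors EPHB2 and NOTCH2 fell too (-0.68, -0.63 and -0.45, edgeR adjusted p = 0.00016, 0.0020 and 0.0044). The other Notch receptors listed, NOTCH1 and NOTCH3, rose (0.95 and 0.79, edgeR adjusted p = 9.3e-05 and 0.016). So did the regulator RHBDF1 and the receptor AXL (0.74 and 0.76, edgeR adjusted p = 0.0010 and 0.019).

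**Figure D4:**
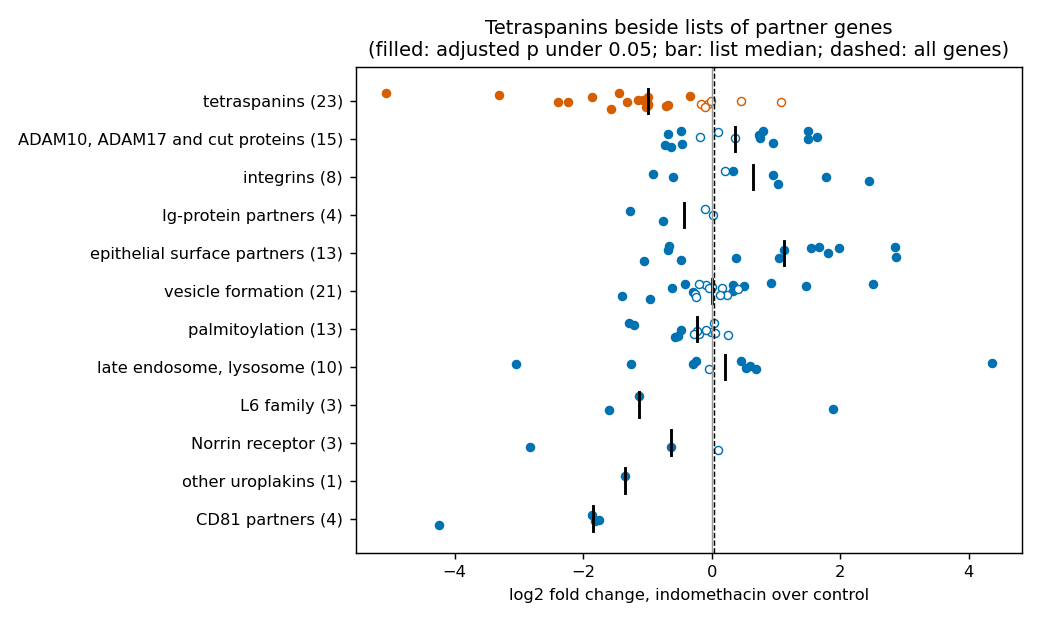
Each point is the log2 fold change of 1 gene, indomethacin over control, for the tetraspanins (top row) and the 11 partner lists with the number tested in brackets; filled points passed an adjusted p under 0.05, bars are list medians and the dashed line is the median of all genes. The tetraspanin median lies at -0.99, that of the integrins at 0.64 and that of the epithelial surface partners at 1.13.

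Of 4 immunoglobulin partners of CD9 and CD81, PTGFRN and IGSF3 fell (log2 fold changes -1.28 and -0.75, edgeR adjusted p = 5.2e-07 and 0.00039). IGSF8 had 38.3 ± 6.99 CPM in indomethacin and 37.7 ± 4.47 CPM in control libraries and did not pass. Of 13 palmitoylation genes 5 fell and the other 8 did not pass (median -0.23). ZDHHC2, an enzyme that attaches palmitate to CD9 and CD151, had 78.8, 62.9 and 57.2 CPM in the indomethacin libraries, against 178, 160.4 and 146 CPM in the control libraries (-1.28, edgeR adjusted p = 1.3e-06), and ZDHHC20, of the same enzyme family, fell too (-1.20, edgeR adjusted p = 3.4e-07). ZDHHC3 and the depalmitoylating enzyme LYPLA2 fell by 0.52 and 0.56 on the log2 scale (edgeR adjusted p = 0.00087 and 0.00056). All 4 CD81 partners tested fell, of 7 listed. They were the antiviral membrane proteins IFITM1, IFITM2 and IFITM3 and the lipoprotein receptor SCARB1 (-1.86, -4.24, -1.82 and -1.75, edgeR adjusted p = 7.3e-07, 3.2e-06, 9.1e-09 and 1.9e-07). The IFITM genes are similar to each other in sequence, so single values are uncertain.

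FZD4, the Norrin receptor that TSPAN12 assists, had 1.33, 0.945 and 0.661 CPM in the indomethacin libraries, against 7.06, 7.68 and 6.61 CPM in the control libraries (log2 fold change -2.83, SE 0.26, edgeR adjusted p = 5.3e-07). It shares 1399 of 7387 exonic bases with PRSS23 on the other strand, so this value is uncertain. Its co-receptor LRP6 fell (-0.64, edgeR adjusted p = 0.00096) and LRP5, at 105 ± 12.9 CPM in indomethacin and 97.6 ± 10.5 CPM in control libraries, did not pass. Of 3 tested genes of the L6 family, which share the membrane topology of tetraspanins without belonging to them, TM4SF1 and TM4SF5 fell (-1.59 and -1.12, edgeR adjusted p = 0.00012 and 0.011) and TM4SF19 rose (1.89, edgeR adjusted p = 0.0032). TM4SF5 no longer passed without control replicate 3 (edgeR adjusted p = 0.068, the highest over its alternatives, which began at 3.2e-05), and TM4SF19 shares 539 of 1899 exonic bases with an antisense gene. UPK3B, the only other uroplakin tested of 3, fell (-1.35, edgeR adjusted p = 0.0042).

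Of 21 genes of extracellular vesicle formation 6 rose, 5 fell and 10 did not pass (median 0.01), beside 61.6% of all genes tested that passed in either direction. The ESCRT subunits HGS and STAM rose (log2 fold changes 1.47 and 0.92, edgeR adjusted p = 6.6e-07 and 1.6e-05), and the raft protein FLOT2 and the recycling GTPase RAB11A fell (-1.39 and -0.62, edgeR adjusted p = 2.1e-06 and 0.00023). RAB27B, RAB35 and CHMP4B also fell (-0.96, -0.42 and -0.29, edgeR adjusted p = 0.0043, 0.0099 and 0.022). FLOT1, VPS4B and RAB7A rose (0.51, 0.33 and 0.33, edgeR adjusted p = 0.00057, 0.027 and 0.021). SMPD3 rose too (2.52, edgeR adjusted p = 0.00032), from a low level. It averaged 2.04 ± 0.787 CPM in indomethacin and 0.345 ± 0.189 CPM in control libraries, and shares 258 of 6984 exonic bases with PRMT7. HGS, with 7995 counts over the 6 libraries, shares 1815 of 10849 exonic bases with an antisense gene of 13 counts. It also shares 303 with ARL16 on the other strand, a gene of 1192 counts, which leaves its value uncertain. The adaptors PDCD6IP (ALIX) and SDCBP (syntenin), which load CD63 and syndecans into vesicles, had log2 fold changes of 0.01 and -0.08 and did not pass. Of 10 genes in the late endosome and lysosome list 5 rose and 4 fell (median 0.21). LAMP3, a lysosomal membrane glycoprotein of stressed and maturing cells, had 58.4, 52.1 and 55.2 CPM in the indomethacin libraries, against 1.91, 3.16 and 2.91 CPM in the control libraries (4.37, edgeR adjusted p = 2.1e-10). SCARB2, the carrier of a lysosomal enzyme, fell (-1.25, edgeR adjusted p = 9.1e-07), NPC1, a cholesterol transporter, rose (0.54, edgeR adjusted p = 0.00058), and SYNGR1 fell (-3.05, edgeR adjusted p = 1.3e-07), a gene of synaptic vesicles rather than of lysosomes. LAMP1 and AP3B1 fell as well (-0.29 and -0.25, edgeR adjusted p = 0.023 and 0.039). AP3D1, MCOLN1 and TMEM192 rose (0.69, 0.59 and 0.45, edgeR adjusted p = 0.0013, 0.031 and 0.0093). NPC1 shares 619 of 9705 exonic bases with RMC1 on the other strand.

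The nearest gene tested on each side of the 23 members made 45 neighbours, of which 20 lay within 10 kb, at a median distance of 28.5 kb and at most 3605 kb away. Of the 45, 17 fell, 9 rose and 19 did not pass (median log2 fold change -0.34), beside 31.0% of all genes tested that fell and 30.6% that rose. For the 17 members that fell there were 33 neighbours, of which 10 fell, 8 rose and 15 did not pass (median -0.27), and nothing particular to the neighbours is read from these counts. Leaving out 1 library in turn gave 16 to 21 neighbours that fell and 6 to 9 that rose. LGR5, a stem cell receptor gene whose span on chromosome 12 overlaps that of TSPAN8 from 71439798 to 71441898 without shared exonic bases, averaged 29.1 ± 10.2 CPM in indomethacin and 375 ± 26.3 CPM in control libraries (log2 fold change -3.68, edgeR adjusted p = 2.7e-09).

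On chromosome 11, CD151 and TSPAN4 lie 2.98 kb apart, with POLR2L, an RNA polymerase subunit, between or over them and CHID1 and CRACR2B on their outer sides. POLR2L and CHID1 fell (log2 fold changes -1.77 and -1.10, edgeR adjusted p = 5.9e-08 and 5.5e-06) and CRACR2B rose (0.86, edgeR adjusted p = 0.0045). CDK4, which overlaps TSPAN31, fell by 0.64 on the log2 scale (edgeR adjusted p = 8.5e-05) while TSPAN31 did not pass. Near CD63 the retinol dehydrogenase RDH5 fell (-1.53, edgeR adjusted p = 0.0046), and near TSPAN13 AGR2, a secretory pathway protein, fell (-0.80, edgeR adjusted p = 0.0016). RDH5 was low, at 0.638 ± 0.347 CPM in indomethacin and 1.88 ± 0.421 CPM in control libraries (SD, n = 3 each). TEAD2 at CD37 and EML3 at ROM1 fell as well (-1.40 and -0.58, edgeR adjusted p = 1.4e-07 and 0.0039), next to members that did not. TSSC4 near CD81, NPLOC4 at TSPAN10 and the pseudogene RPS27P3 inside TSPAN9 rose (0.31, 0.33 and 0.44, edgeR adjusted p = 0.033, 0.0098 and 0.022), beside members that fell.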

How the data were processed

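Total RNA from 6 AGS libraries, depleted of ribosomal RNA and made with a stranded kit per the labels' protocols, was sequenced as read pairs. The authors deposited raw counts per gene, library by library, beside exon positions and an exon length, per the file headers. The lengths are other than counts, and were used as the authors deposited them. The submitters' processing notes name cutadapt 1.16, HISAT2 2.1.0 and featureCounts with build hg38. The strand setting, the treatment of reads with several matches and the annotation release are not given in the sources used here, which bears on genes with copies or overlaps on the other strand.

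Lines that broke 1 gene into 3 were left out of every file, leaving 60604 genes, named by a supplied symbol list. Low genes were removed with filterByExpr of edgeR 4.0.16 in R 4.3.3, and the rest scaled by TMM and tested with the quasi-likelihood test with group as the only term, adjusted by Benjamini-Hochberg over 17200 genes at a threshold of 0.05. SEs were derived from each gene's test statistic. CPM values use TMM library sizes, except the limits for a count of 0 in a single library, which use total counts. TPM values and their shares were computed from counts and length.

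The members, roles and lists were chosen with earlier results of these data known. Members at 5 CPM or more in a group were to be given by library, with up to 4 genes of each list by adjusted p, any that passed against its list, and neighbours within 10 kb. Libraries within a group differed beyond counting noise (chi-square over its degrees of freedom, 7.91 to 25.9), so none was treated as a copy of another, which does not show that they came from separate cultures. Alternatives were limma-voom (limma 3.58.1), DESeq2 1.42.0, RLE and upper-quartile factors, other filters, library sizes without mitochondrial genes, a replicate block and each library left out. Promoter sequences are from RefSeq on GRCh38.p14.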

Additional observations from a re-analysis of the deposited data

How the results depend on the processing

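Under all alternatives 16 or 17 members passed as lower. The count of members that passed as higher, 0 in the report, was 1 with limma-voom (CD37), 2 with upper-quartile factors (CD37 and TSPAN1) and 1 with no filter on low counts (PRPH2), and 0 to 1 when each library was left out, where PRPH2 passed without control replicate 1, control replicate 2 or indomethacin replicate 3. The median log2 fold change of the members was -0.88 with upper-quartile factors and -0.80 with no filter, where 32 members were tested, and -1.07 to -0.97 when each library was left out. The summed TPM of the members was 374 in indomethacin and 1129 in control libraries when mitochondrial genes were kept out of the total, which by construction raises every other gene. Partner genes that fell and rose numbered 36 and 33 in the report, 33 and 39 with upper-quartile factors and 40 and 27 with no filter, and 33 to 38 and 26 to 31 with each library left out. TM4SF5 no longer passed without control replicate 3 (edgeR adjusted p = 0.068, the highest over its alternatives). The causes of the other changes were not tested. Libraries share replicate numbers across groups, but libraries of the same number deviated together with correlations of 0.02, 0.01 and 0.13, so the numbers were not taken as pairs, and with the replicate number as a block 17 members passed as lower and 1 as higher (CD37). Not every library correlated best with its own number. Members under about 1 CPM rest on few counts, and depth limits what can be said of them.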
